A study of Macaca fascicularis with 10 samples.

Results

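INPP5F, ATP10A and TP73 are 3 autosomal genes that have been reported as imprinted in some human or mouse tissues, cells or transcripts. They were taken by name from a table of 7229 genes with counts for each parental allele, and the question was whether they are read from both alleles in the dorsal raphe nucleus. The dorsal raphe is a brainstem nucleus that holds most of the serotonin neurons that project to the forebrain. Its total RNA was sequenced in 10 daughters, all female macaques of the species Macaca fascicularis, and the labels name the mother and father of each. The labels give 1 group and no treatment, and no age is used here, so the comparison is between the paternal and the maternal allele within an animal. The daughters are numbered 1 to 10 in label order. Daughters 1, 7 and 8 share a labelled father, daughters 4 and 5 share another, and daughters 6 and 10 share a mother.

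Imprinted genes carry marks set in the parental germ line, so that the copy from 1 parent is transcribed and the other is silent. The effect can be limited to a tissue, a cell type or a single promoter of a gene. INPP5F encodes a Sac domain phosphoinositide phosphatase of the endocytic pathway. In human and mouse brain a short INPP5F transcript from an internal promoter comes from the paternal copy, while the full-length transcript comes from both. ATP10A encodes a flippase, a membrane pump that moves phospholipids to the inner leaflet. It lies beside the imprinted region linked to Prader-Willi and Angelman syndromes, and reports of its maternal expression in human and mouse differ between tissues and individuals. TP73 encodes a transcription factor of the p53 family that mouse brain needs for ciliated ependyma and for early cortical neurons. Its maternal expression was proposed from human neuroblastoma and is disputed in other tissues. The counts are per gene, so transcripts of 1 gene cannot be told apart here.

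The libraries held 30090 (daughter 1) to 999471 (daughter 6) allelic reads, and the paternal column held between 49.3% and 50.4% of them. The serotonin gene TPH2 was measured in 7 daughters, at 44.7 to 5412 CPM (reads scaled to a fixed total of allelic reads per daughter), and 4 of 7 serotonin neuron markers could be followed. The astrocyte, oligodendrocyte, microglia and cerebellar markers looked for had no row in the table, so they could not be followed. The columns are given as labelled, but 3 daughters went against the labels in genes that are expressed from the paternal copy in human and mouse brain. GRB10, DLK1 or MEST, where it had 20 or more reads, lay mostly in the maternal column in daughters 2, 6 and 9 and in the paternal column in daughters 3, 4, 5 and 10. COPG2, which lies on the opposite side to GRB10, placed daughters 7 and 8 with daughters 2, 6 and 9. Mean and summed paternal shares of the 3 genes and the tests between the columns are therefore given with and without daughters 2, 6 and 9. Daughters 7 and 8 stay in all of these, since GRB10, DLK1 and MEST had no value in them. Daughter 1 stays in too and was not placed by these genes. GRB10 had only 8 reads there, 62.5% of them paternal (30.6 to 86.3). The distance of a share from 50% does not depend on which column is which parent.

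Reads of both alleles were found in all 22 measurements of the 3 genes in a daughter. Of these, 18 had 10 or more allelic reads and are used below, with 1454 reads in all. The paternal share is the part of these reads that fell in the paternal column, in percent. It lay between 40% and 60% in 11 of the 18 measurements, or 61.1%, against 69.8% of all 27887 measurements in the table. None of the 18 had 90% or more of its reads on 1 side, where 1.87% of all measurements did. The 95% Wilson interval covers counting error only, and it is too narrow where reads are not independent molecules. It lay wholly between 10% and 90% in 17 of the 18. It excluded 50% in 3 of the 18, or 16.7%, against 20.1% of all measurements. The members' shares are near these backgrounds. Reads of both alleles and intervals wholly between 10% and 90% were not counted over all measurements, so those results have no background here.

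INPP5F was close to balance in the 2 daughters with most of its reads. It lay mostly in the paternal column in daughter 1, which had few reads and whose columns could not be placed. It had a value in 5 daughters and 10 or more reads in all 5. Daughter 4 had 82 paternal and 84 maternal reads, a paternal share of 49.4% (interval 41.9 to 56.9). Daughter 5 had 77 paternal and 57 maternal reads, or 57.5% (49.0 to 65.5). Both intervals include equal shares. Daughter 9 had 16 paternal and 18 maternal reads, or 47.1% (31.5 to 63.3). Daughter 6 had 10 paternal and 5 maternal reads, or 66.7% (41.7 to 84.8). These daughters, with fewer INPP5F reads, also do not differ from 50% beyond counting error. Daughter 1 stood apart from them, with 25 paternal and 4 maternal reads, or 86.2% (69.4 to 94.5).

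The mean paternal share of INPP5F was 61.4% ± 15.9 (SD, n = 5), and of its 378 summed reads 55.6% were paternal (50.5 to 60.5). Intervals of summed reads, here and below, treat the reads of all daughters as 1 sample. They leave out the spread between daughters, so an interval that excludes 50% does not show a lean across daughters. Daughter 1 has the fewest allelic reads of the series, and 12.2% of its measurements had an interval that excluded 50%. Only 3.42% of its measurements lay farther from balance than INPP5F. The 29 INPP5F reads there made 964 CPM of its allelic reads, against 15.01 to 198 CPM in the other 4 daughters. Totals of allelic reads follow the number of informative positions in an animal as well as expression, and fewer cells of a type and less RNA per cell cannot be told apart in bulk tissue. Whether depth or position number has a part in the share of daughter 1 was not tested. Without daughter 1 the mean INPP5F share was 55.1%. Without daughters 2, 6 and 9 it was 64.4% ± 19.3 (SD, n = 3), with 55.9% of 329 summed reads (50.5 to 61.2). Daughter 1 is still among these 3. Within title prefix 10203, treated as a batch, it was 64.9% ± 15.8 (SD, n = 4). Prefix 10480 holds daughter 9 alone for this gene.

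**Figure D1:**
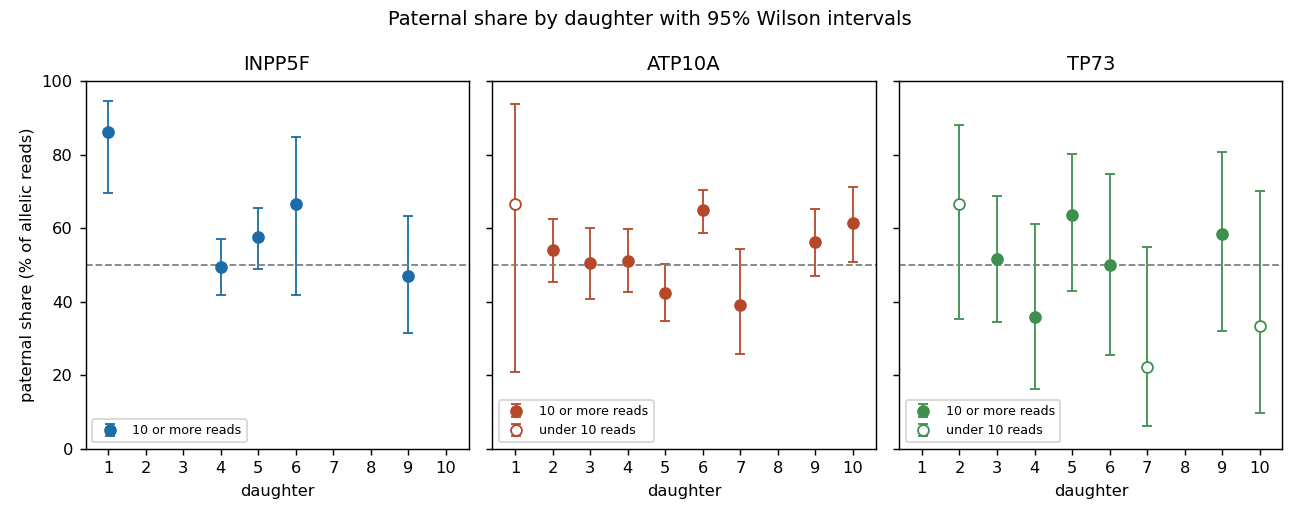
Paternal share in percent of allelic reads for INPP5F, ATP10A and TP73 in each daughter, with 95% Wilson intervals (counting error only); filled points have 10 or more reads, open points fewer, and the dashed line marks 50%. INPP5F in daughter 1 at 86.2% and ATP10A in daughters 6 and 10 at 64.8% and 61.4% are the filled points whose intervals exclude 50%.

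ATP10A was read from both copies at moderate depth in 8 daughters, and neither copy held under 35% of its reads in any of them. Its share was 54.0% of 124 reads in daughter 2 (45.3 to 62.6), 50.5% of 99 in daughter 3 (40.8 to 60.1) and 51.2% of 129 in daughter 4 (42.6 to 59.6). Those 3 daughters lay within 5 points of equal shares. It was 42.4% of 151 reads in daughter 5 (34.8 to 50.4), 39.0% of 41 in daughter 7 (25.7 to 54.3) and 56.4% of 110 in daughter 9 (47.0 to 65.3). As labelled, daughters 5 and 7 leaned to the maternal column and daughter 9 to the paternal one, each within its counting error. In daughter 6 there were 162 paternal and 88 maternal reads, a share of 64.8% (58.7 to 70.5). In daughter 10 there were 51 paternal and 32 maternal reads, or 61.4% (50.7 to 71.2). These were the 2 ATP10A measurements whose intervals excluded 50%. Daughter 6 is the deepest library of the series, and 22.7% of its measurements excluded 50%, as did 19.9% in daughter 10. Daughter 1 had 2 paternal and 1 maternal read, too few to use.

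The mean paternal share of ATP10A was 52.5% ± 8.77 (SD, n = 8), above 50% in 6 daughters as the columns are labelled and below in 2. Without daughters 2, 6 and 9 it was above 50% in 3 and below in 2. Of the 987 summed reads 54.5% were paternal (51.4 to 57.6), but daughter 6 gave 250 of them. This interval also leaves out the spread between daughters. The mean was 50.7% without daughter 6. It was 52.6% ± 8.09 within title prefix 10203 (SD, n = 5) and 52.3% ± 11.8 within prefix 10480 (SD, n = 3). Without daughters 2, 6 and 9 it was 48.9% ± 8.73 (SD, n = 5), with 49.1% of 503 summed reads (44.8 to 53.5). Daughter 7, which COPG2 placed with daughters 2, 6 and 9, is still among these 5 and had the lowest ATP10A share, 39.0%. The level of ATP10A was the steadiest of the 3 genes, at 150 to 263 CPM of allelic reads in the 8 daughters.

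TP73 was thinly read, and its measurements allow a wide range of shares. Daughter 3 had 15 paternal and 14 maternal reads, or 51.7% (34.4 to 68.6), and daughter 5 had 14 paternal and 8 maternal reads, or 63.6% (43.0 to 80.3). Daughter 4 had 5 paternal and 9 maternal reads, or 35.7% (16.3 to 61.2). Daughters 6 and 9 had 12 reads each, with shares of 50% (25.4 to 74.6) and 58.3% (32.0 to 80.7). All 5 intervals include equal shares, and each spans more than 34 points, so a moderate lean of TP73 was not detectable at this depth. The mean was 51.9% ± 10.5 (SD, n = 5), with 52.8% of 89 summed reads in the paternal column (42.5 to 62.8). Below 10 reads, daughter 2 had 6 paternal and 3 maternal reads, daughter 7 had 2 and 7, and daughter 10 had 2 and 4. TP73 had 12.0 to 44.6 CPM of allelic reads. Its mean share was 50.3% ± 11.4 within title prefix 10203 (SD, n = 4), and prefix 10480 holds daughter 9 alone. Without daughters 2, 6 and 9 the mean was 50.4% ± 14.0 (SD, n = 3), with 52.3% of 65 summed reads (40.4 to 64.0).

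**Figure D2:**
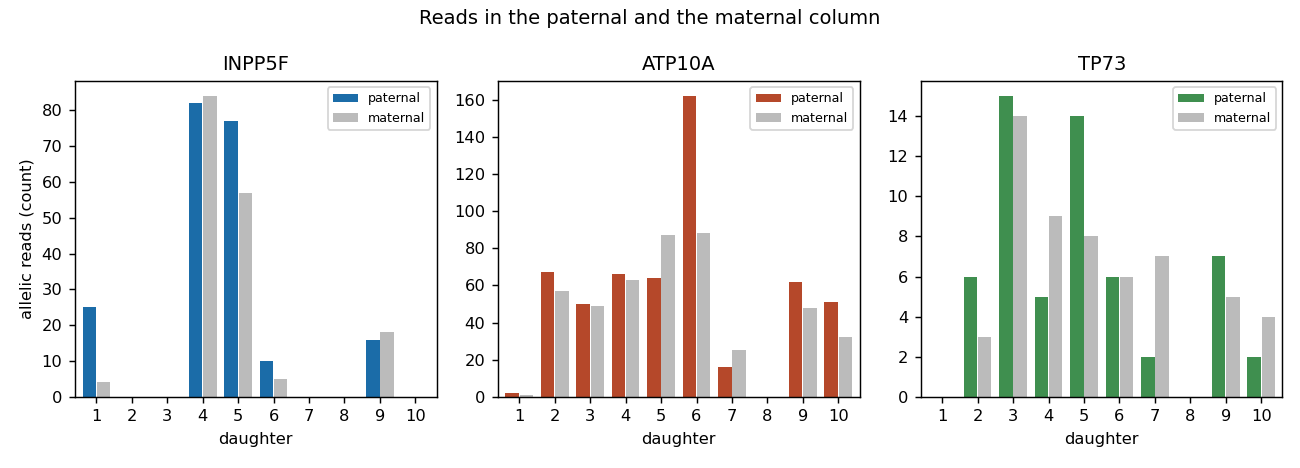
Allelic reads (counts) in the paternal column (coloured bars) and the maternal column (grey bars) of each daughter, on an axis of its own for each gene; a daughter without bars had no value. Both columns held reads in every daughter with a value, from 1 maternal ATP10A read in daughter 1 to 162 paternal ATP10A reads in daughter 6.

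Across the table, the paternal and maternal columns were compared with edgeR's quasi-likelihood test, with the daughter as block. It called 0 of 2981 genes at a Benjamini-Hochberg adjusted p of 0.05 (0%), with 93 at an unadjusted p under 0.05, and DESeq2 called 0, with 62 unadjusted. None of the 3 genes passed, and neither did GRB10, which lay on opposite sides in different daughters. The log2 ratio of paternal to maternal reads was 0.54 ± 0.35 for INPP5F, 0.18 ± 0.17 for ATP10A and -0.03 ± 0.31 for TP73 (SE, edgeR adjusted p = 1 for each). This fit sets a daughter with no value to 0 in both columns and uses daughters under 10 reads. For TP73 the fit includes daughters 2, 7 and 10, and its sign is opposite to that of the mean share.

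An exact sign-flip permutation test over daughters, two-sided, gave p = 0.25 for INPP5F, where 5 daughters allow no p below 0.0625. For ATP10A it gave an exact p = 0.4375, where 8 daughters allow 0.00781, and for TP73 an exact p = 0.75, with the same limit as INPP5F. The mean log2 ratios in this test were 0.73 ± 1.08, 0.15 ± 0.51 and 0.11 ± 0.59 for INPP5F, ATP10A and TP73 (SD). A p that misses the threshold does not show equal expression of the copies. Without daughters 2, 6 and 9 the edgeR ratio was 0.66 ± 0.47 for INPP5F, -0.02 ± 0.21 for ATP10A and -0.27 ± 0.40 for TP73 (SE). The direction of ATP10A turned round, with daughter 7 still in the fit. The exact sign-flip p was then 0.5 for INPP5F and 1 for ATP10A and TP73, where 0.25, 0.0625 and 0.25 were the smallest possible. Within title prefix 10203 it was 0.71 ± 0.39, 0.18 ± 0.19 and 0.19 ± 0.33 for the same genes, so TP73 changed sign there.

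The spread between daughters was larger than counting error for INPP5F and ATP10A and was not for TP73. A chi-square test of equal paternal shares in all daughters with 10 or more reads was run on the same 2981 genes, and it called 1201, or 40.3%, at an adjusted p of 0.05. A call is thus common in this table, and reads that are not independent molecules make such p-values too small. The adjusted p was 0.0121 for INPP5F, with a chi-square per degree of freedom of 3.88. It was 0.00168 for ATP10A at 3.80 per degree of freedom, and 0.672 for TP73 at 0.719. A single library decided each of the 2 calls. Without daughter 1 the adjusted p of INPP5F was 0.438, and without daughter 6 that of ATP10A was 0.131. Without daughters 2, 6 and 9 it was 0.00561 for INPP5F and 0.124 for ATP10A.

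Set against all genes that reached 10 reads in at least 5 daughters, the distance from equal shares placed ATP10A and TP73 in the middle of the table. The mean distance was 7.11 ± 5.10 points for ATP10A (SD, n = 8) and 7.60 ± 6.59 points for TP73 (SD, n = 5), where the median over the 2981 genes was 7.66 points. Of these genes, 56.1% lay farther from balance than ATP10A and 50.6% farther than TP73. Counting error alone makes this distance larger where reads are few, and the ranking does not correct for depth. ATP10A had 41 to 250 reads in a daughter and TP73 12 to 29, so their like places do not show like balance. INPP5F lay at 12.8 ± 14.5 points (SD, n = 5), with 14.4% of genes farther out. Its mean distance was 6.92 points without daughter 1, so the larger value depends on that daughter. The median of 7.66 points keeps daughter 1 in and was not computed without it, so no place is given for 6.92 points. With every measurement of 1 or more reads, the mean distance of TP73 was 12.4 ± 8.96 points (SD, n = 8), so its place depends on the read minimum.

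**Figure D3:**
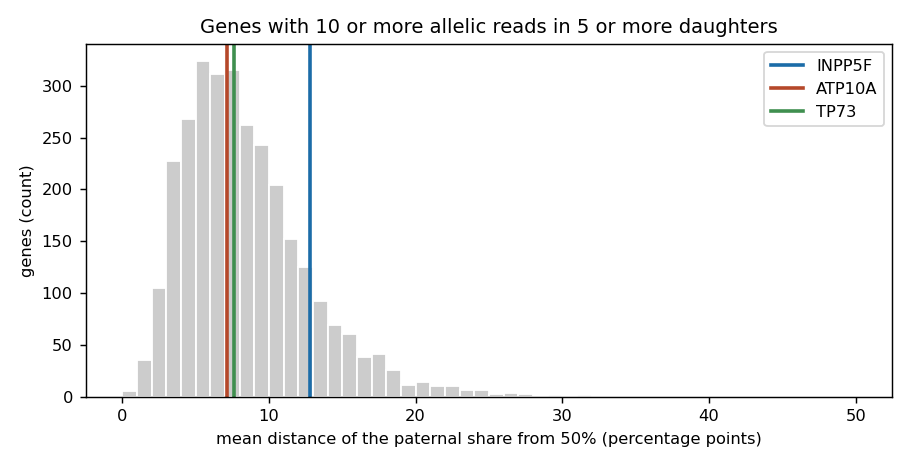
Number of genes by mean distance of the paternal share from 50%, in percentage points, for the 2981 genes that reached 10 allelic reads in at least 5 daughters. The coloured lines mark ATP10A at 7.11, TP73 at 7.60 and INPP5F at 12.8 points.

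In the same libraries, GRB10, DLK1 and MEST were read almost wholly from 1 copy, and some other genes reported as imprinted were not. In daughter 4, INPP5F had 49.4%, ATP10A 51.2% and TP73 35.7% of reads in the paternal column, where the receptor adaptor gene GRB10 had 97.7% of 265 and the Notch ligand homologue DLK1 all of 53. In daughter 6, ATP10A had 64.8%, INPP5F 66.7% and TP73 50%, where GRB10 had 2.97% of 370 reads, DLK1 1.74% of 115 and the hydrolase family gene MEST 3.09% of 162. In both daughters INPP5F, ATP10A and TP73 had reads of both copies while GRB10 and DLK1 had nearly all reads on 1 side. COPG2, a coat protein gene beside MEST, lay at 22.4% to 87.8% over 7 daughters. GNAS, the stimulatory G protein alpha subunit, lay at 39.2% to 58.4% over 5. L3MBTL1, which encodes a chromatin protein, lay at 28% to 75% over 9, KLHDC10 at 36.3% to 68.8% over 6 and the cell cycle regulator RB1 at 20.3% to 66.7% over 5. The genes were selected with these values known, so no test was made between them.

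The shares of INPP5F, ATP10A and TP73 overlapped between the daughters with GRB10 on either side. In daughters 3, 4, 5 and 10, where GRB10 was paternal, ATP10A ranged from 42.4% to 61.4%, and in daughters 2, 6 and 9, where GRB10 was in the maternal column, it ranged from 54.0% to 64.8%. The ranges overlap. INPP5F had 49.4% and 57.5% in daughters 4 and 5, and 66.7% and 47.1% in daughters 6 and 9. TP73 had 35.7% to 63.6% in daughters 3, 4 and 5, and 50% and 58.3% in daughters 6 and 9. The ranges of INPP5F and TP73 overlap too.

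**Figure D4:**
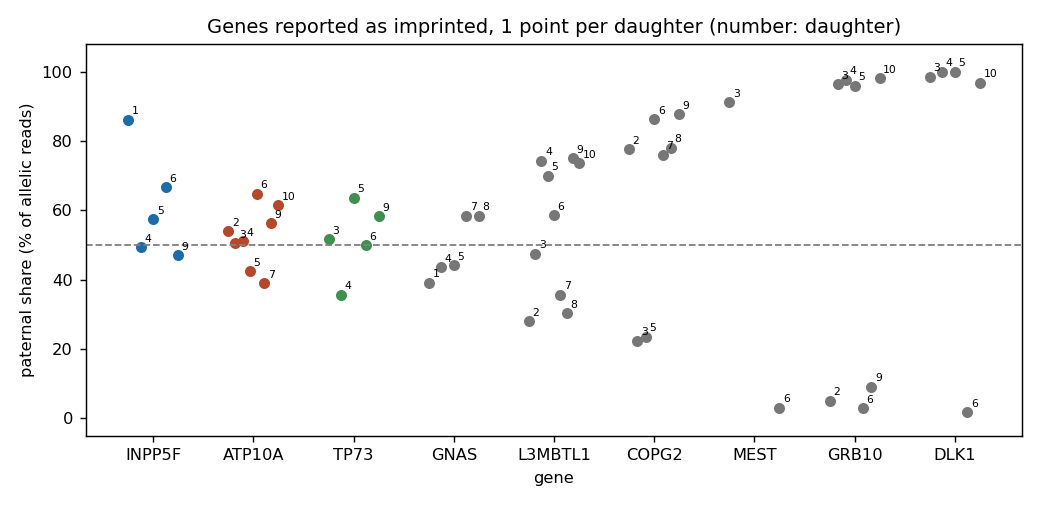
Paternal share in percent of allelic reads for INPP5F, ATP10A, TP73 and 6 other genes reported as imprinted, with 1 point per daughter with 10 or more reads and the daughter's number beside it. ATP10A lies between 39.0% and 64.8%, while GRB10, DLK1 and MEST lie beyond 90% on 1 side in each daughter.

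Daughters with a shared parent carry alleles of the same parent, and their values are given side by side. Daughters 6 and 10, with 1 mother, had the 2 highest ATP10A shares as the columns are labelled, 64.8% and 61.4%. Daughter 6 is among those whose columns went against the labels, and its share in the other column was 35.2%. Daughters 4 and 5, with 1 father, had 51.2% and 42.4% for ATP10A, 49.4% and 57.5% for INPP5F, and 35.7% and 63.6% for TP73. For TP73 these were the lowest and the highest share measured. Daughters 1, 7 and 8 had none of the 3 genes at 10 or more reads in more than 1 of them. Whether sisters are more alike for these genes was not tested, since each comparison rests on 1 or 2 pairs.

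INPP5F averaged 61.4%, or 55.1% without daughter 1, against 46.3% to 52.9% for the genes next to it, and none of these had 10 or more reads in daughter 1. The difference was not tested. Without daughter 1 the mean distance of INPP5F was 6.92 points. For the genes next to it the distance was 8.33 for MCMBP, 6.60 for GRK5, 5.69 for SFXN4, 5.35 for WDR11, 4.79 for BAG3 and 3.97 for SEC23IP. Neighbours were the 3 nearest measurable genes on each side by gene order in another assembly, T2T-MFA8v1.1, so no coordinates are given. The mean paternal share was 48.6% ± 7.03 for SFXN4 (SD, n = 6), 46.3% ± 7.03 for the receptor kinase gene GRK5 (SD, n = 7) and 50.5% ± 6.46 for the co-chaperone gene BAG3 (SD, n = 3). On the other side it was 48.9% ± 10.0 for MCMBP (SD, n = 8), which encodes a binding protein of the replicative helicase. It was 51.3% ± 5.55 for SEC23IP (SD, n = 7) and 52.9% ± 5.57 for WDR11 (SD, n = 9). MCMBP ranged from 34.8% in daughter 9 to 62.1% in daughter 5 and was the only 1 of these neighbours called by the chi-square test (adjusted p = 0.0104), while BAG3 was not tested. MCMBP and INPP5F lay on the same side of 50% in 2 of 4 shared daughters, as did WDR11 and INPP5F in 3 of 4. GRK5, SFXN4 and SEC23IP lay on the side of INPP5F in 1 of 3 each, and BAG3 in 0 of 1.

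Among the genes beside ATP10A, some varied widely between daughters. GABRA5, a subunit of the inhibitory GABA receptor, had 45.0% ± 17.1 (SD, n = 6), from 22.9% in daughter 4 to 71.4% in daughter 6, and the pigment gene OCA2 had 51.8% ± 21.6 (SD, n = 5), from 22.6% in daughter 10 to 76.1% in daughter 6. Both were called by the chi-square test (adjusted p = 0.000319 and 1.07e-06). In daughter 6 ATP10A, GABRA5 and OCA2 were each above 60% paternal, and in daughter 10 OCA2 was low where ATP10A was high. The nicotinic receptor gene CHRNA7 had 56.7% ± 15.9 (SD, n = 8). OTUD7A had 49.7% ± 12.2 and the myotubularin-related gene MTMR10 49.2% ± 4.94 (SD, n = 7 each). MTMR10 lay on the side of ATP10A in 1 of 7 shared daughters.

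Of the 17 genes listed for the human 15q11-q13 region and its surroundings, 8 were in the table with ATP10A included, and 0 were called in either direction by edgeR. The other 9 were not analysed here. By the chi-square test 4 of the 8 were called (40.3% over all genes): HERC2, ATP10A, GABRA5 and OCA2. HERC2, a ubiquitin ligase gene, ranged from 35.1% to 80.7% over 10 daughters, and the centrosomal gene TUBGCP5 from 40.2% to 52.4% over 8. The median of the mean distances was 6.69 points in this list, against 7.66 over all genes.

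The genes around TP73 gave both balanced and uneven rows. LRRC47 had 50.5% ± 3.49 (SD, n = 3) and TPRG1L 50.8% ± 3.06 (SD, n = 5). WRAP73, which lies next to TP73, had 47.9% ± 9.49 (SD, n = 7), and PANK4 49.5% ± 10.6 (SD, n = 5). C1H1orf174 ranged from 30.4% to 100% over 4 daughters. WRAP73 lay on the side of TP73 in 1 of 4 shared daughters, where equal shares count as neither side.

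Genes of the same pathways are set beside the table as a whole, in which edgeR called 0 of 2981 genes between the columns and the chi-square test 40.3%. Of 32 listed phosphoinositide enzymes and their partners, INPP5F not counted, the table held 17. Of the 13 tested, edgeR called 0 higher in the paternal and 0 higher in the maternal column. The chi-square test called 7 of the 13, and the median of their mean distances was 7.22 points, against 7.66 over all genes. PI4KA, a lipid kinase that makes the substrate pool of this pathway, had 49.6% ± 2.27 (SD, n = 8), and INPP4A, a phosphatase, 50.05% ± 6.64 (SD, n = 9). MTMR6, another phosphatase, had 54.4% ± 8.64 (SD, n = 5). OCRL, the X-linked phosphatase of Lowe syndrome, ranged from 22.8% to 66.9% over 8 daughters.

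Of 16 flippases and subunits, ATP10A not counted, the table held 10. Of the 7 tested, edgeR called 0 in either direction (0% over all genes) and the chi-square test 6 (40.3% over all genes). Their median mean distance was 5.19 points, against 7.66. ATP9A had 49.4% ± 4.37 (SD, n = 10), ATP8A1 48.5% ± 3.53 and ATP9B 50.3% ± 7.25 (SD, n = 9 each), and ATP8A2, which is needed for axon upkeep in mouse, 52.0% ± 7.28 (SD, n = 9). ATP10A ranged from 39.0% to 64.8%, and ATP10D, of the same subgroup and named after its values were seen, from 31.0% to 73.8%, each over 8 daughters. The widths were not tested against each other.

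Of 22 genes of the p53 family and its targets, TP73 not counted, the table held 9. Of the 2 tested, edgeR called 0 and the chi-square test 0. These were the Notch ligands JAG2, at 51.3% ± 5.37 (SD, n = 9), and JAG1, at 55.1% ± 7.93 (SD, n = 8). Their median mean distance was 5.21 points, against 7.66 over all genes. MDM2, the ubiquitin ligase of p53, had 46.7% ± 4.12, the cell death gene BAX 49.5% ± 8.96 and the Hippo pathway factor YAP1 50.5% ± 6.99 (SD, n = 3 each).

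Of 60 genes reported as imprinted, INPP5F, ATP10A and TP73 among them, the table held 20. Of the 11 tested, edgeR called 0 in either direction (0% over all genes) and the chi-square test 9 (40.3% over all genes). Neither count can decide whether a gene is imprinted. GRB10, at a mean distance of 45.9 points, was not called by edgeR, as its side changed between daughters. The chi-square test calls only shares that differ between daughters, so a gene read from the same column in all of them would be missed. TP73 and the dopa decarboxylase gene DDC were the 2 that the chi-square test did not call. DDC had 54.6% ± 4.30 (SD, n = 5). ZIM2 had 99.7% and 99.8% in the 2 daughters measured. The median of the mean distances was 12.8 points over the 11 genes, which is the value of INPP5F, against 7.66 over all genes.

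The rows most like each gene were sought by the root mean square difference of paternal shares over the daughters that the gene was measured in. For ATP10A, over 8 daughters and 599 other genes, they were PTPRD at 5.45 points, WDR11 at 5.71 and FA2H at 5.75, where the median gene differed by 11.8. For INPP5F, over 5 daughters and 257 genes, they were AGTPBP1 at 7.70, ERC1 at 9.01 and PC at 9.13 points, with a median of 18.8. For TP73, over 5 daughters and 1082 genes, they were OGFOD3 at 2.70, MAN2B1 at 3.91 and SBF1 at 4.51 points, with a median of 12.3. These are descriptions over few daughters.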

How the data were processed

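Stranded libraries of total RNA, depleted of ribosomal RNA, were read in pairs of 101 cycles each, as the labels state. The aligner was Novoalign, per the submitters' processing notes. The authors deposited whole-number counts per gene, with a paternal and a maternal column for every daughter (20 columns), on build macFas5 per the file headers. Phasing, informative positions and read filters are not given in the sources used here. Columns were matched to samples by title, and all daughters, which come from separate animals, form 1 group. Shares need 10 or more allelic reads in a daughter and have 95% Wilson intervals.

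The quasi-likelihood test of the columns used edgeR 4.0.16 (R 4.3.3; library size summed over both alleles, genes that reached 10 reads in at least 5 daughters, Benjamini-Hochberg adjustment), and with DESeq2 1.42.0 as the other tool. The chi-square test, exact sign-flip test (0.5 added to each count) and shares used Python 3.11.15, NumPy 2.4.6, pandas 2.3.3 and SciPy 1.17.1, and figures matplotlib 3.10.9. Both tests over all genes were tested on simulated data. Gene symbols were matched to the gene table of T2T-MFA8v1.1 for gene order only. Alternatives were other normalisations and read minimums, no block, each daughter left out, and each title prefix alone.

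The members, lists and tests were chosen with earlier results of these data known. Named genes are the 3 members, up to 4 members of each list with most reads, neighbours, the 3 most similar rows, and GRB10, DLK1, MEST and COPG2. Any other gene named was picked after seeing its values. Some genes that this rule names are not reported here.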

Additional observations from a re-analysis of the deposited data

How the results depend on the processing

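Of 182 alternative values, 171 kept their direction, their side of the threshold or, for a mean, stayed within 1 SD. This includes every mean share and mean distance of INPP5F, ATP10A and TP73, but the SD between few daughters is a wide limit. The INPP5F distance of 6.92 points without daughter 1, against 12.8 ± 14.5, counts as kept. So does the TP73 distance of 12.4 points with 1 or more reads, against 7.60 ± 6.59. The count of genes that differ between the columns was 0, with 2 without a read filter and 2 without daughters 2, 6 and 9, an alternative chosen after seeing the data. Leaving out each daughter gave 0 to 1, the 1 without daughter 6. The edgeR log2 ratio with each daughter left out ranged from 0.22 to 0.77 for INPP5F (0.22 without daughter 1), from 0.07 to 0.28 for ATP10A (0.07 without daughter 6) and from -0.20 to 0.14 for TP73, which turned positive without daughter 4, 7 or 10 and within prefix 10203 (0.19). ATP10A was -0.021 without daughters 2, 6 and 9. No adjusted p of these ratios passed, and the cause of the changes was not tested. With no replicate block the ratios were 1.61 ± 1.50 for INPP5F, 0.25 ± 0.69 for ATP10A and -0.10 ± 0.64 for TP73 (SE). The chi-square per degree of freedom with each daughter left out ranged from 1.18 to 5.05 for INPP5F, from 2.03 to 4.43 for ATP10A, and from 0.313 to 0.953 for TP73. The lowest values of the first 2 lost the call, as did ATP10A without daughters 2, 6 and 9 (2.44). With a minimum of 20 reads INPP5F and TP73 could not be fitted, and prefix 10480 gave no mean for them. Depth limits TP73 most, with 12 to 29 reads in a daughter.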
